A study of Arabidopsis thaliana with 10 samples.

Results

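Of 22746 probe sets measured in vegetative shoot apices of Arabidopsis thaliana, 60 had a signal that was gained in the BLS>>TCP4 arrays alone and lay close together in the other groups. A probe set was taken when both BLS>>TCP4 arrays lay above all other 8 arrays and the BLS>>TCP4 mean was at least 1.5 above the mean of those 8 on the log2(signal + 16) scale. The means of miR319b and of octa also had to lie within 0.5 of the joint mean of Col and miR-3TCP. These conditions were met by 65 probe sets, or 0.286% of all. AOP3 and AT2G21130 and 3 genes of an organelle genome were then left out. MT1C and AT4G14090 were to be left out as well and did not meet the conditions. The members were chosen by these signals on all 10 arrays, so their differences between BLS>>TCP4 and the other arrays are given as a description, with no test.

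BLS>>TCP4 plants expressed TCP4 from BLS, a promoter specific to leaves, in the Ler accession and were sampled at 14 DAS, the age code in the labels. The other 4 groups were in the Col accession. The octa plants, aged 18 DAS, are read here as the line that combines the 2 microRNAs against all 8 CIN-TCP genes. The miR319b plants carried 35S:319b, whose targets are TCP2, TCP3, TCP4, TCP10 and TCP24, with an age of 17 DAS. The miR-3TCP plants, at 14 DAS, carried 35S:miR-3TCP, an artificial microRNA whose targets are TCP5, TCP13 and TCP17. Col plants at 14 DAS were the unaltered control. Each group had 2 arrays, and all plants grew on soil with 10 h of light at 20 °C. No Ler array without the transgene was analysed here, so the accession and TCP4 expression cannot be told apart in any of these signals. The labels do not say how many lines or plants a sample held.

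CIN-TCP proteins are plant transcription factors that slow cell division and promote differentiation as a leaf grows. The transcript of TCP4 is among those that the microRNA miR319 targets for cleavage. Ler and Col are inbred accessions of the same species. Accessions can differ in gene copies, promoters and transcript sequence, and each such difference can change the signal of an oligonucleotide array.

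Signals are linear MAS5 intensities, and every array had a median of 50. The mean signal was 191 and 198 for BLS>>TCP4 and 141 to 156 for the other 8 arrays, so bright probe sets were brighter in BLS>>TCP4. Over all probe sets, the 2 BLS>>TCP4 arrays lay above the other 8 for 22.4% and below them for 8.43%. The conditions mirrored, with a fall of at least 1.5, gave 107 probe sets after the same exclusions. In RNA from whole apices, more cells of a type and more RNA per cell cannot be told apart.

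The median difference of the 60 members was 1.77 between BLS>>TCP4 and the other 8 arrays on the log2(signal + 16) scale, with a range of 1.5 to 3.68. Over all probe sets the median difference was 0.097. Against Col alone the members had a median difference of 1.73, with a range of 1.11 to 3.56, where all probe sets had a median of 0.094. Most members were dim outside BLS>>TCP4: the mean of the 8 arrays was below 50, the array median, for 36 of 60 and below 16 for 16 of 60. Both BLS>>TCP4 arrays exceeded 50 for 52 members. For 20 members both BLS>>TCP4 arrays lay above 50 while all other 8 lay below it.

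Of the members, 32 had 1 listed gene, 3 matched several genes and 25 had no listed gene. Among the 32, the gene table gave 31 as protein-coding and AT2G13750 as a pseudogene. For 31 the table's symbol was only the locus tag, as it was for 88.0% of all probe sets with 1 gene, and BGLU33 was the exception. The protein families named below are general knowledge of these loci and do not come from that table. None of the 32 genes had another listed probe set that could serve as a further measurement. Probe sets with no listed gene could not be searched for one.

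**Figure D1:**
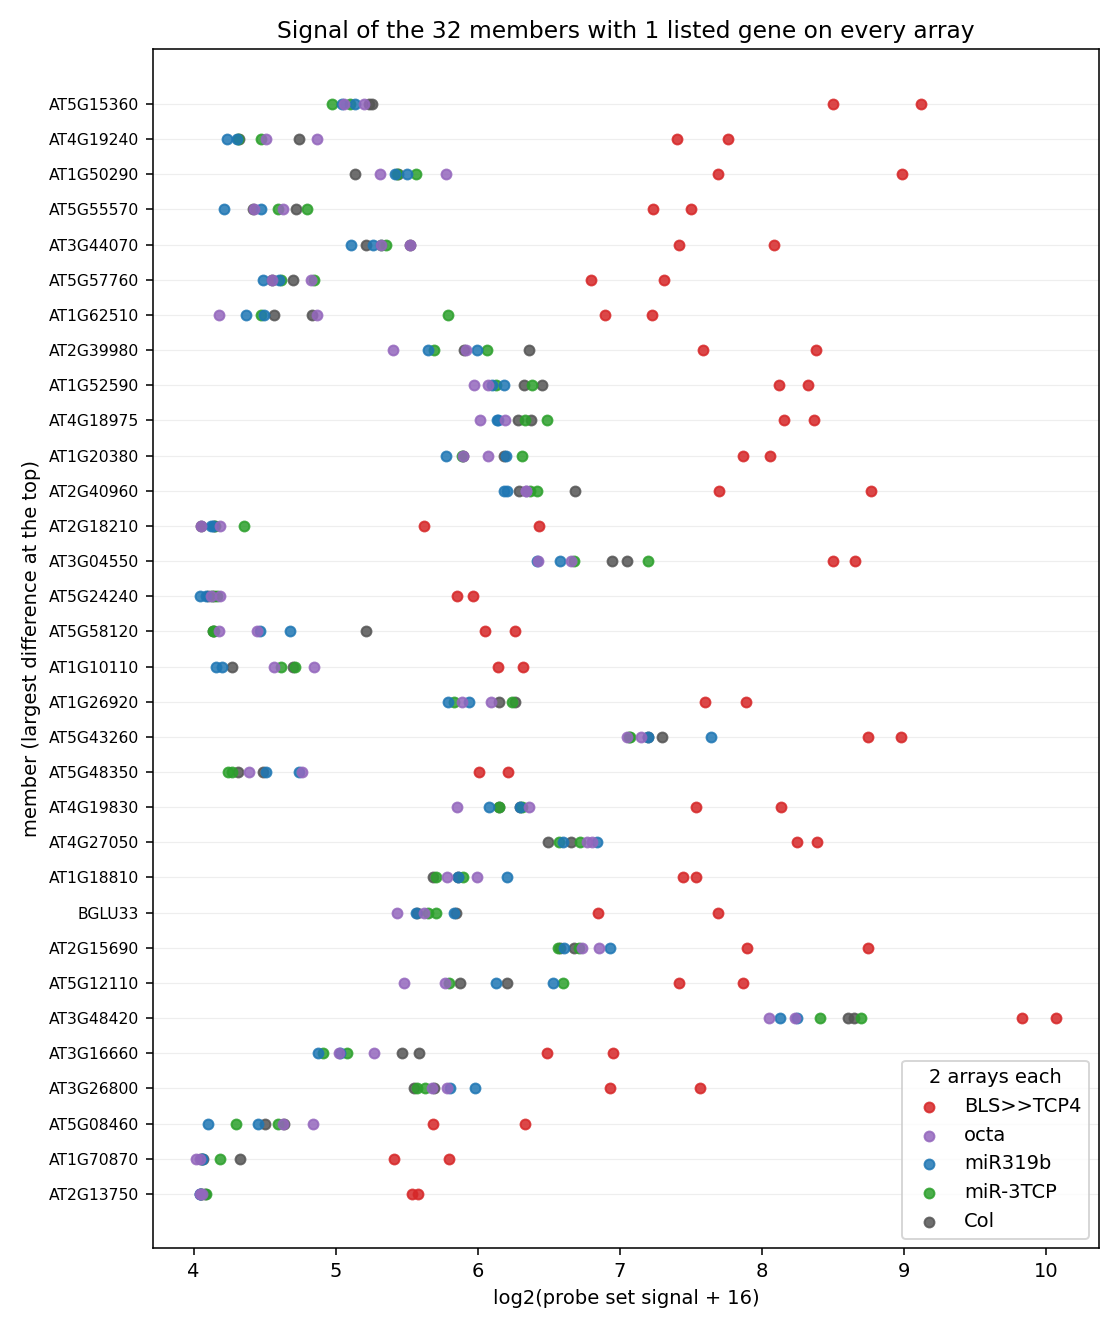
Signal of the 32 members with 1 listed gene on each of the 10 arrays, as log2(signal + 16), with a point per array coloured by group and the genes ordered by the difference between BLS>>TCP4 and the other 8 arrays. Both BLS>>TCP4 points lie to the right of all others in every row by the rule, by 3.68 for AT5G15360 in the mean and by 1.5 for AT2G13750.

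Among members with 1 listed gene, the largest gains came from genes for which no function is given here. AT5G15360 had signals of 539.8 and 346 in BLS>>TCP4, 17.3 and 20.7 in octa, 19.2 and 17.0 in miR319b, 18.4 and 15.4 in miR-3TCP, and 22.2 and 21.7 in Col. Its difference from Col was 3.56 ± 0.19 (log2 scale, SE), and its mean percentile within an array was 89.9 in BLS>>TCP4 and 35.8 on the other 8 arrays. The signal of AT4G19240 was 201 and 154 in BLS>>TCP4, 6.82 and 13.2 in octa, 2.80 and 3.74 in miR319b, 3.84 and 6.24 in miR-3TCP, and 10.7 and 3.94 in Col. Outside BLS>>TCP4, neither gene reached the array median on any array.

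AT1G50290 showed the widest gap between the BLS>>TCP4 arrays among members with 1 listed gene, with 191 and 492 in BLS>>TCP4, 23.7 and 39.0 in octa, 29.3 and 26.7 in miR319b, 27.2 and 31.3 in miR-3TCP, and 19.2 and 27.5 in Col. Its lower BLS>>TCP4 array was still 191, against a highest signal of 39.0 elsewhere. For AT5G55570 the signals were 134 and 165 in BLS>>TCP4, 8.70 and 5.47 in octa, 6.21 and 2.60 in miR319b, 8.11 and 11.9 in miR-3TCP, and 10.4 and 5.40 in Col. The 2 BLS>>TCP4 arrays lay close together for this gene and far from the remaining 8.

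AT3G44070 read 155 and 256 in BLS>>TCP4, 24.0 and 30.1 in octa, 22.4 and 18.4 in miR319b, 24.95 and 24.0 in miR-3TCP, and 21.1 and 30.1 in Col. AT5G57760 read 95.5 and 143 in BLS>>TCP4, 7.45 and 12.3 in octa, 6.44 and 8.32 in miR319b, 8.54 and 12.8 in miR-3TCP, and 10.0 and 7.50 in Col. Differences from Col were 2.38 ± 0.22 for AT3G44070 and 2.43 ± 0.20 for AT5G57760 (log2 scale, SE). AT2G18210 was among the dimmest members, with 70.2 and 33.2 in BLS>>TCP4, 2.24 and 0.623 in octa, 1.40 and 1.61 in miR319b, 4.51 and 1.73 in miR-3TCP, and 0.620 and 1.66 in Col. Only 1 of its 2 BLS>>TCP4 arrays passed the array median, and its mean over all arrays was below the filter used for tests.

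AT1G26920 was bright enough in all groups to be measured on each side, with 178 and 221 in BLS>>TCP4, 52.2 and 43.2 in octa, 39.5 and 45.4 in miR319b, 40.9 and 59.7 in miR-3TCP, and 60.7 and 55.1 in Col. AT5G48350 was near 0 outside BLS>>TCP4, with 58.3 and 48.5 in BLS>>TCP4, 11.1 and 4.94 in octa, 6.82 and 10.7 in miR319b, 3.27 and 2.93 in miR-3TCP, and 6.44 and 3.85 in Col. For AT3G26800, ranked lower, the difference from the other 8 arrays was 1.54.

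Some members encode proteins of chloroplasts and other organelles. AT3G04550 encodes an accumulation factor for Rubisco, the carbon-fixing enzyme of photosynthesis, and had signals of 387 and 346 in BLS>>TCP4, 69.9 and 85.01 in octa, 69.3 and 79.4 in miR319b, 86.4 and 131 in miR-3TCP, and 107 and 117 in Col. AT3G48420 encodes a phosphatase of the haloacid dehalogenase family that removes a sugar phosphate inhibiting Rubisco. It was the brightest member with 1 listed gene, at 894 and 1059 in BLS>>TCP4 and 249 to 400.2 on the other 8 arrays. Its difference from the other 8 was 1.57, close to the threshold.

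A pair of members encode pentatricopeptide repeat proteins, a family that binds organelle RNA. AT4G18975 had 269.9 and 314 in BLS>>TCP4, 57.3 and 48.8 in octa, 54.4 and 54.8 in miR319b, 64.8 and 73.8 in miR-3TCP, and 61.7 and 67.1 in Col. AT2G15690 had 414 and 222 in BLS>>TCP4, 90.2 and 99.6 in octa, 81.4 and 106 in miR319b, 88.7 and 78.9 in miR-3TCP, and 86.6 and 79.7 in Col. In the first gene the BLS>>TCP4 arrays were close together, and in the second array 1 was the higher by 0.86 on the log2 scale. AT1G52590, of a family of putative thiol-disulfide oxidoreductases, had 263 and 304 in BLS>>TCP4, 51.3 and 46.9 in octa, 56.8 and 52.8 in miR319b, 53.9 and 67.6 in miR-3TCP, and 64.3 and 71.6 in Col. Its groups were separated by a wide margin, the highest of the other 8 being 71.6.

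Protein folding genes were represented by 2 members. AT4G19830 encodes a peptidyl-prolyl isomerase of the FKBP type, an enzyme that helps proteins fold, and had 169 and 265 in BLS>>TCP4, 41.9 and 66.3 in octa, 62.8 and 51.6 in miR319b, 55.1 and 63.4 in miR-3TCP, and 62.6 and 55.1 in Col. AT5G43260 encodes a protein related to DnaJ chaperones and had 413 and 488 in BLS>>TCP4, 117 and 126 in octa, 131 and 183 in miR319b, 118 and 118 in miR-3TCP, and 141 and 131 in Col. AT5G43260 was well above the array median in every group, and the other 8 arrays ranged from 117 to 183.

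Several members encode enzymes of metabolism. AT2G39980, an acyltransferase gene of the HXXXD type, had 318 and 176 in BLS>>TCP4, 26.3 and 44.5 in octa, 47.9 and 34.2 in miR319b, 50.9 and 35.7 in miR-3TCP, and 66.1 and 43.9 in Col. AT1G20380, a gene of the prolyl oligopeptidase family of peptidases, had 217 and 251 in BLS>>TCP4, 43.5 and 51.4 in octa, 38.8 and 57.6 in miR319b, 43.3 and 63.3 in miR-3TCP, and 43.7 and 56.7 in Col. BGLU33, a beta-glucosidase gene, had 191 and 99.1 in BLS>>TCP4, 27.2 and 33.3 in octa, 41.0 and 31.3 in miR319b, 34.3 and 36.3 in miR-3TCP, and 41.6 and 31.5 in Col. In AT1G20380 the BLS>>TCP4 arrays agreed closely, whereas in AT2G39980 and BGLU33 array 1 was the higher, by 0.79 and 0.84 on the log2 scale.

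AT5G24240, a gene of the phosphatidylinositol kinase family, had 41.8 and 46.5 in BLS>>TCP4, 1.44 and 2.22 in octa, 0.980 and 0.520 in miR319b, 1.90 and 1.54 in miR-3TCP, and 1.67 and 1.17 in Col. It was at or below 2.22 on all other 8 arrays and below the array median in BLS>>TCP4 too. AT1G62510, of the lipid transfer and seed storage protein superfamily, had 133 and 103 in BLS>>TCP4, 2.11 and 13.2 in octa, 6.54 and 4.68 in miR319b, 39.3 and 6.24 in miR-3TCP, and 12.55 and 7.74 in Col. Array 1 of miR-3TCP was the highest of the other 8 for this gene. AT5G08460, a lipase-like gene of the GDSL family, had 64.7 and 35.4 in BLS>>TCP4 and 1.13 to 12.6 on the other 8 arrays.

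Genes of protein turnover and of disease resistance included 3 members. AT5G58120 encodes a disease resistance protein of the TIR-NBS-LRR class, intracellular receptors for pathogens, and had 60.8 and 50.4 in BLS>>TCP4, 5.83 and 2.09 in octa, 6.12 and 9.60 in miR319b, 1.66 and 1.58 in miR-3TCP, and 21.0 and 1.56 in Col. Array 1 of Col was the highest of the other 8 for this gene. AT1G10110, an F-box gene, had 63.9 and 54.6 in BLS>>TCP4, 12.7 and 7.65 in octa, 2.43 and 1.89 in miR319b, 10.3 and 8.49 in miR-3TCP, and 10.0 and 3.31 in Col. F-box proteins select targets for ubiquitin ligases. AT4G27050, a further F-box family gene, had 287 and 319 in BLS>>TCP4, 93.0 and 95.7 in octa, 98.6 and 81.1 in miR319b, 89.2 and 79.2 in miR-3TCP, and 85.1 and 74.2 in Col, and was measurable in every group.

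Among members with roles in nucleic acid binding, translation and light signalling, AT2G40960 encodes an R3H-domain protein that binds single-stranded nucleic acids. It had 191 and 419 in BLS>>TCP4, 65.0 and 64.9 in octa, 56.7 and 57.9 in miR319b, 69.7 and 66.7 in miR-3TCP, and 62.3 and 86.9 in Col, and array 1 minus array 2 of BLS>>TCP4 was -1.07 on the log2 scale. AT1G18810, a relative of phytochrome kinase substrate genes of light signalling, had 170.1 and 159 in BLS>>TCP4, 47.7 and 39.2 in octa, 42.1 and 58.0 in miR319b, 36.1 and 43.5 in miR-3TCP, and 42.1 and 35.5 in Col. Its BLS>>TCP4 arrays were nearly equal. AT5G12110, a gene of translation elongation factor EF1B, differed from the other 8 arrays by 1.59.

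AT1G70870, of the major latex protein family, and the pseudogene AT2G13750 stood just inside the threshold. The members with 1 listed gene just inside had differences of 1.5004 (AT2G13750), 1.5007 (AT1G70870) and 1.5032 (AT5G08460). Just outside were AT2G38780, AT4G18970 and AT1G62250, with 1.4974, 1.497 and 1.4882. The 3 inside were dim, AT2G13750 having 31.8 and 30.5 in BLS>>TCP4 and at most 1.04 elsewhere. The 3 outside were bright on all arrays, AT4G18970 having 916 and 949 in BLS>>TCP4 and 213 to 404 elsewhere.

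The 25 members with no listed gene had signals of up to 4432 in BLS>>TCP4. The brightest of them had 4432 and 3906 in BLS>>TCP4, 1227 and 856 in octa, 1161 and 1517 in miR319b, 1366 and 1361 in miR-3TCP, and 1112 and 1437 in Col. Of the 3 members that matched several genes, the brightest had 2163 and 1824 in BLS>>TCP4 and 178.6 to 207 on the other 8 arrays. None of these 28 is named. The exclusion of organelle genes could be applied only where a gene was listed.

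**Figure D2:**
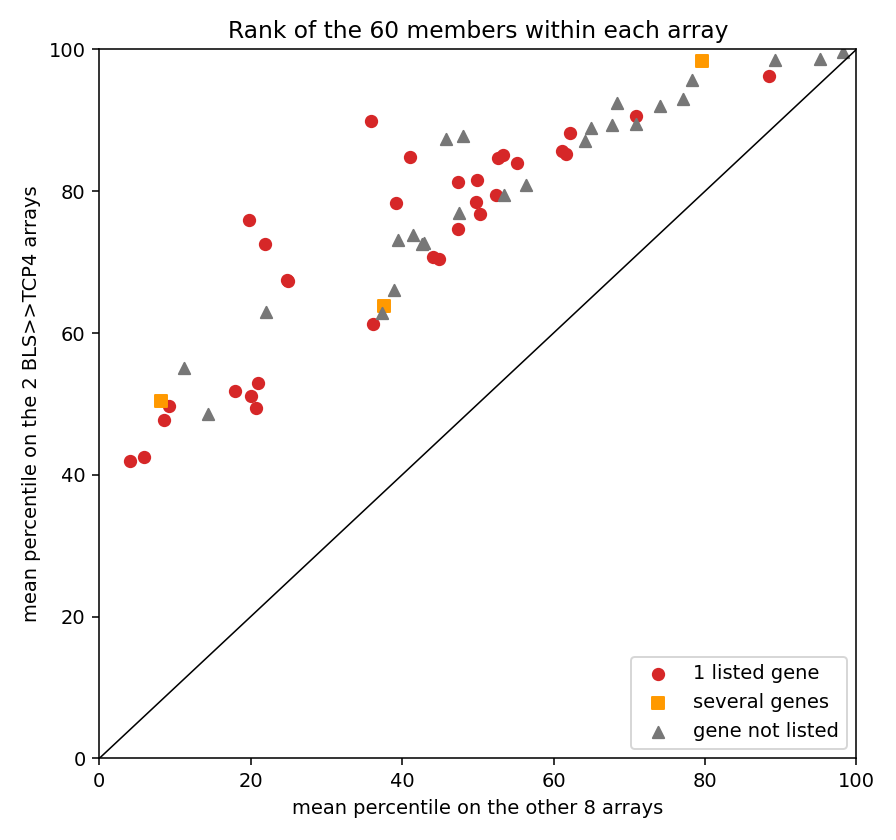
Mean percentile of each of the 60 members among all probe sets of an array, on the BLS>>TCP4 arrays (vertical axis) against the other 8 arrays (horizontal axis), with the line of equal rank. The median member stood at percentile 78.4 in BLS>>TCP4 and 46.6 on the other 8 arrays, and all members lie above the line.

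Ranked within each array, which does not depend on the scale of the array, the median member stood at percentile 78.4 in BLS>>TCP4 and 46.6 on the other 8 arrays. Percentiles in BLS>>TCP4 ran from 42.0 to 99.7, and those on the other arrays from 4.00 to 98.2.

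The median absolute difference between the 2 BLS>>TCP4 arrays over the 60 members was 0.36 on the log2 scale. Between the 2 arrays of each other group it was 0.18 in octa, 0.15 in miR319b, 0.20 in miR-3TCP and 0.19 in Col. Most members were dim in those groups, and this scale understates differences of dim probe sets. Their values are therefore not directly comparable with that of BLS>>TCP4. Over all probe sets the BLS>>TCP4 arrays differed by a median of 0.23. Over the 13116 probe sets with a BLS>>TCP4 mean in the range of the members, the median was 0.26. Array 2 was the higher for 37 members and array 1 for 23 members, and over all probe sets array 1 was the higher for 47.4%. A difference above 1 was seen in 5 members, AT1G50290 and AT2G40960 among those with 1 listed gene. The smallest difference with 1 listed gene was that of AT2G13750, at 0.04.

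**Figure D3:**
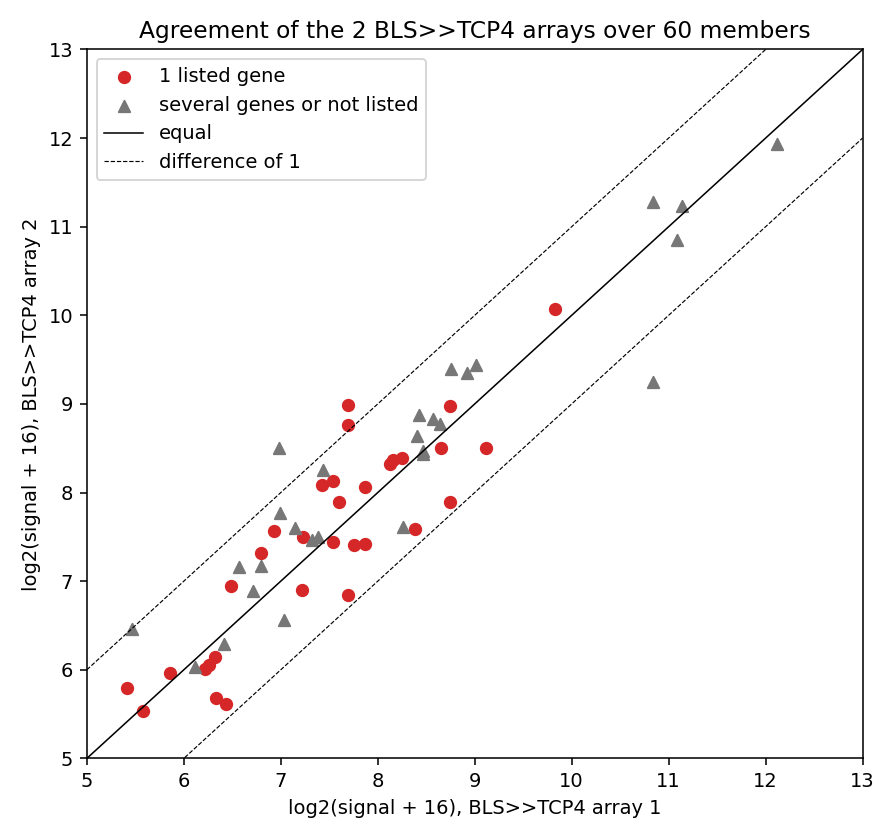
log2(signal + 16) of the 60 members on BLS>>TCP4 array 2 against array 1, with the line of equal signal and dashed lines at a difference of 1. Most members lie within the dashed lines, and 5 lie outside them.

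The artificial microRNA could be assessed in miR-3TCP against Col, groups of equal age and accession. The choice of members did not set these 2 groups against each other. It did use their arrays, through their joint mean and the mean of the 8, and each had to lie below both BLS>>TCP4 arrays. These limits can narrow how far the 2 groups differ among the members, in all counts that follow. Of the 60 members, 48 passed the filter on mean signal and 12 did not, and 10 of the 48 passed only because of their BLS>>TCP4 signals. The 38 that passed on the other 8 arrays come first. None of the 38 was called by limma at an adjusted p under 0.05, where 0.00733% of all 13648 tested probe sets were. At an unadjusted p under 0.05 there was 1 of 38, or 2.63%, against 2.94% of all tested. Differences of the 38 ran from -0.74 to 0.24 on the log2 scale, with a median of -0.025 and 21 negative, and the median of all tested probe sets was 0.0027. With the other 10 members added, 0 of 48 were called, 2 had an unadjusted p under 0.05 and the highest difference was 0.43.

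AT3G16660, of a family related to the olive pollen allergen Ole e 1, had the smallest p among the 48. It passed the filter only because of its BLS>>TCP4 signals, so its p is given as a description, as is that of AT1G62510. Its signals were 73.8 and 108 in BLS>>TCP4, 16.6 and 22.5 in octa, 13.4 and 16.7 in miR319b, 14.1 and 17.9 in miR-3TCP, and 32.1 and 28.2 in Col. Both miR-3TCP arrays lay below both Col arrays, with a log2 difference of -0.53 ± 0.19 (SE, limma unadjusted p = 0.0176, adjusted p = 1). The next among members with 1 listed gene was AT1G62510 (log2 difference 0.43 ± 0.37, limma unadjusted p = 0.278). After it came AT5G43260 (-0.18 ± 0.17, limma unadjusted p = 0.301). Of all 60 members, 8 had both miR-3TCP arrays below both Col arrays and 3 had both above, which is 13.3% and 5%, against 18.9% and 17.3% of all probe sets.

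**Figure D4:**
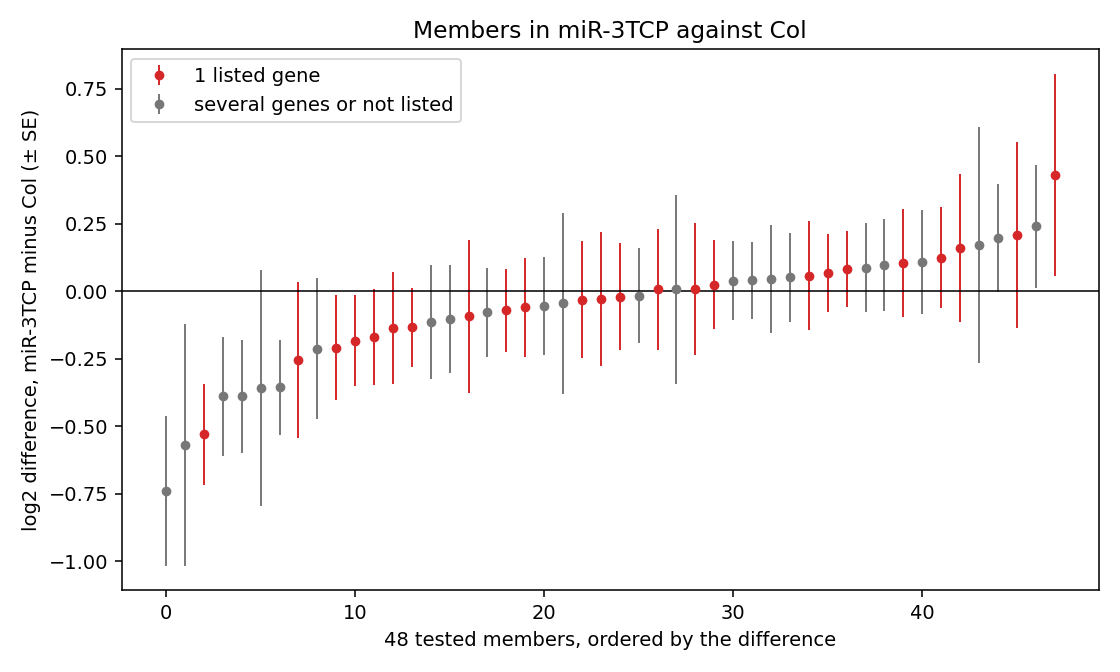
Difference between miR-3TCP and Col (log2 scale, ± SE of the limma fit) for the 48 tested members, of which 10 passed the filter only because of their BLS>>TCP4 signals, ordered by its value. The points run from -0.74 to 0.43 around a median of -0.025, and none passed an adjusted p under 0.05.

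Under miR319b and in octa the members were held near Col and miR-3TCP by the rule, so their levels there are a description. Differences from the joint mean of Col and miR-3TCP ran from -0.50 to 0.41 in octa, with a median of -0.089, and from -0.50 to 0.38 in miR319b, with a median of -0.093. A further 70 probe sets met the conditions on BLS>>TCP4 but lay more than 0.5 away in miR319b or octa, so that the 65 meeting all conditions were part of 135 such probe sets.

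The members with 1 listed gene were spread over all 5 nuclear chromosomes, with 8 on chromosome 1, 6 on chromosome 2, 5 on chromosome 3, 4 on chromosome 4 and 9 on chromosome 5. All probe sets with 1 nuclear gene were divided as 25.8%, 16.5%, 20.5%, 14.7% and 22.5% over the same chromosomes. Gene order was taken from the TAIR10.1 gene table for 31 of the 32 members. No 2 of these members lay within 3 protein-coding genes of each other.

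Flanking genes, which the rule did not choose, included both higher and lower signals in BLS>>TCP4. Within 3 genes of a member, 57 probe sets of 56 genes were tested between BLS>>TCP4 and Col by limma. Of these probe sets 10 were higher and 11 lower at an adjusted p under 0.05. The called ones make up 36.8% of the 57, and the lower ones 19.3%, where 26.1% of all tested probe sets were called, 2375 of 13648 as higher and 8.71% as lower. Over all tested probe sets, this balance turned with the scaling of the arrays. It was 1231 higher and 1339 lower after quantile normalization, and 1334 higher and 1864 lower with a 2% trimmed mean. Flanking probe sets had more lower than higher calls under each scaling. Of them, 7 were higher and 11 lower after quantile normalization, and 7 higher and 13 lower with the trimmed mean. The median difference of the 57 was -0.066 as deposited, and that of all tested probe sets was 0.10. Directly next to a member, 4 of 18 tested genes were higher and 4 lower.

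The flanking genes described next were chosen after their values were seen. AT3G16670, next to AT3G16660 and of the same family, had 346 and 524 in BLS>>TCP4, 27.3 and 36.6 in octa, 9.57 and 20.4 in miR319b, 28.2 and 24.4 in miR-3TCP, and 92.0 and 47.9 in Col. It rose in BLS>>TCP4 against Col (2.41 ± 0.28 (SE), limma adjusted p = 0.000361), and it was no member because its mean in miR319b lay more than 0.5 below that of Col and miR-3TCP. AT4G18970, next to AT4G18975, belongs to the GDSL lipase family and rose by 1.33 ± 0.17 (SE), limma adjusted p = 0.000494. It missed the threshold for members by a narrow margin.

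Other flanking genes fell. AT1G62500, directly next to AT1G62510 and of the same superfamily, had 216 and 182 in BLS>>TCP4, 934 and 628 in octa, 932 and 879.8 in miR319b, 1287 and 802 in miR-3TCP, and 962 and 727 in Col, with a log2 difference from Col of -1.99 ± 0.25 (SE), limma adjusted p = 0.000508. AT1G62480, 3 genes away, had a difference of -3.90 ± 0.23 (SE), limma adjusted p = 8.27e-06. MYBC1, a MYB-related transcription factor gene next to AT2G40960, fell with a difference of -2.27 ± 0.25 (SE), limma adjusted p = 0.000252.

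None of the 32 members with 1 listed gene belonged to the gene lists drawn up for this comparison. Whether the other members did could not be told, because they matched several genes or had no listed gene. AOP3, a list gene that met the conditions, had been left out by name. Members were 0.264% of all probe sets, so an overlap of 0 with so few listed probe sets says little. The 8 lists held 226 genes, of which 31 had a listed probe set and 21 were tested between BLS>>TCP4 and Col by limma. Photosynthesis was the list with most tested genes, and 6 of 6 were higher, with a median of 1.05. Examples are RCA, the Rubisco activase gene (1.06 ± 0.08, adjusted p = 3.22e-05), and PSBY of photosystem II (1.18 ± 0.10, adjusted p = 5.66e-05). Over all 13648 tested probe sets, 2375 were higher and the median difference was 0.10. After quantile normalization 1 of these 6 was called higher, PSBY (0.33, limma adjusted p = 0.0424), and the median was 0.16, whereas with a 2% trimmed mean all 6 were higher, with a median of 0.85.

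Of the 40 genes listed as CIN-TCP and leaf development targets, 6 had a listed probe set, and none of these was a CIN-TCP gene. The signals of TCP4 and of the other microRNA targets were therefore not seen here. In this list 1 of 3 tested was higher, the cytokinin response regulator gene RR16 (1.52 ± 0.30, adjusted p = 0.00576). NGA3, too dim to test, had 51.4 and 57.7 in BLS>>TCP4 and 3.59 to 19.96 on the other 8 arrays. For NGA1 and NGA4, also too dim to test, BLS>>TCP4 overlapped the other arrays. Among loci known to vary between Ler and Col, AOP1 of glucosinolate synthesis was higher (1.27 ± 0.19, adjusted p = 0.00148) and QQS was lower (-5.29 ± 0.19, adjusted p = 1.33e-06). AOP3, also of glucosinolate synthesis, met the conditions of the rule, so its difference of 5.23 ± 0.35 is given as a description. QQS was not low in Ler alone: it had 5.66 and 1.18 in BLS>>TCP4, 11.6 and 12.5 in octa, 20.9 and 21.1 in miR319b, 1.42 and 7.77 in miR-3TCP, and 804.9 and 676.8 in Col. Flavonoid and anthocyanin synthesis had 2 of 4 higher, the glycosyltransferase genes UGT78D2 (1.05 ± 0.32, adjusted p = 0.0368) and UGT78D1 (0.63 ± 0.15, adjusted p = 0.0133). UGT78D2 was called under neither other scaling, and UGT78D1 after quantile normalization but not with the trimmed mean. Jasmonate synthesis and response had 1 of 1 lower, OPCL1 (-1.24 ± 0.25, adjusted p = 0.00611), and cold, drought and heat response had 1 of 3 lower, COR47 (-0.97 ± 0.24, adjusted p = 0.0164). In the clock and light list 0 of 1 was called, GI having a difference of 0.28 ± 0.23 (adjusted p = 0.406). Of 36 disease resistance and salicylate genes only 2 had a listed probe set, SAG101 and WRKY53, and neither was bright enough to test.

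Markers of the tissue and of other tissues were sparse on the list of named probe sets. The meristem markers CLV3 and UFO were near 0 on all arrays, with a summed signal of 4.73 to 12.3 in BLS>>TCP4 and 2.67 to 8.87 on the other 8. The leaf primordium markers YAB3 and PHV had summed signals of 547 to 612 in BLS>>TCP4 and 579.8 to 853 elsewhere, and neither was called. RCA, the only mature mesophyll marker with a listed probe set, had 6010.0 to 6275 in BLS>>TCP4 and 2780.0 to 2996 on the other 8. RCA was not called after quantile normalization. Whether a larger share of mature leaf cells had a part in the members' signals was not tested. The 1 marker each for flower (AGL24) and root (PYK10) was lower in BLS>>TCP4, of 4 stomatal markers 1 of 3 tested was higher, and of 3 trichome markers 1 of 2 tested was higher. Of the stomatal markers STOMAGEN was the higher one (1.28 ± 0.22, limma adjusted p = 0.00284), while SPCH had -0.77 ± 0.28 (adjusted p = 0.0729) and FMA 0.057 ± 0.14 (adjusted p = 0.791). MUTE was too dim to test, with 37.2 and 34.1 in BLS>>TCP4 and at most 9.69 on the other 8 arrays. Of the trichome markers GIS was the higher one (0.74 ± 0.24, limma adjusted p = 0.0495), while SIM had -0.64 ± 0.22 (adjusted p = 0.0601). GIS was not called under either other scaling, and SIM and SPCH were called lower with the 2% trimmed mean. No marker of vasculature, seed or pollen and tapetum had a listed probe set.

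After quantile normalization, which gives every array the same distribution of signals, both BLS>>TCP4 arrays still lay above the other 8 for all 60 members. The difference then had a median of 1.67 and a range of 1.01 to 3.45, and 43 of the 60 met all conditions, 24 of them with 1 listed gene. AT5G43260, AT4G27050, AT2G15690, AT3G48420, AT3G26800, AT5G08460, AT1G70870 and AT2G13750 were those with 1 listed gene that did not. When each array was instead scaled to a common 2% trimmed mean, 34 of the 60 met the conditions.

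**Figure D5:**
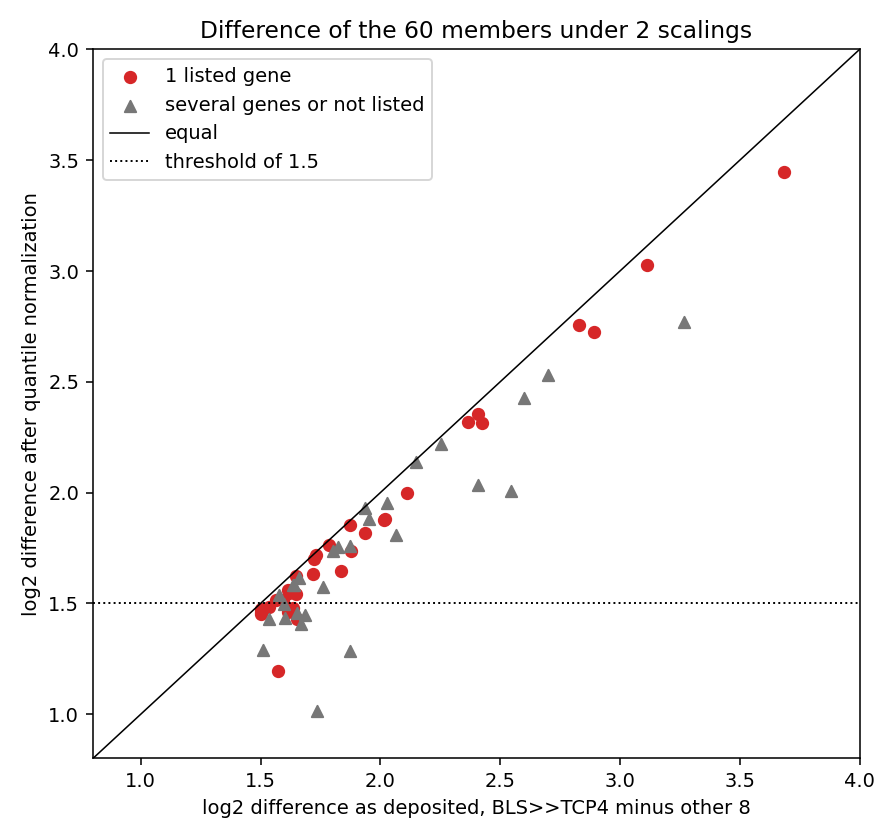
Difference between BLS>>TCP4 and the other 8 arrays (log2 scale) for the 60 members after quantile normalization (vertical axis) and as deposited (horizontal axis), with the line of equality and the threshold of 1.5. The difference ranges from 1.01 to 3.45 after quantile normalization, and 43 members met all conditions of the rule.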

How the data were processed

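Total RNA of vegetative apices was hybridised to Affymetrix arrays, 10 samples in 5 groups of 2. The values deposited by the authors are linear intensities of 22810 probe sets computed in MAS5 according to the submitters' processing notes. Version, settings and array build were not given in the sources. Genes were named from the platform annotation, with symbols updated through the TAIR10.1 RefSeq table (13513 of 22746 probe sets with 1 gene, 503 with several, 8730 not listed). Promoter and protein sequences were not analysed here, nor were classes of genes by description.

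After removal of 64 AFFX controls, values were taken as log2(signal + 16), so that changes of dim probe sets are understated. Probe sets with a mean signal at or above the 40th percentile (27.2) were fitted in 1 limma model over all 10 arrays, with 1 term per group, 5 residual degrees of freedom and an intensity trend (limma 3.58.1, R 4.3.3). Calls were made at a Benjamini-Hochberg adjusted p under 0.05 over all 13648 probe sets tested, and every p-value is from that model. The number of arrays limits the precision. The model shares 1 spread among groups, although replicates differed more in BLS>>TCP4 (SD of the log2 difference 0.41) than in the others (0.24 to 0.28). The labels name no separate cultures or plants, so p-values reflect only differences between these samples, possibly technical ones. The model was also run on simulated data with equal spread in every group and large changes planted in miR-3TCP only. That run does not bear on the wider spread of BLS>>TCP4 or on small changes.

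Members and lists were chosen with earlier results of these data known. By the rule for names, the 25 members with 1 listed gene and the largest difference are given on every array and others by their difference; members nearest the threshold, of smallest p in miR-3TCP against Col or of extreme replicate difference, called list genes and flanking genes were also named. The grouping of members by role, the scalings of list and flanking genes and the count over members that passed the filter on the other 8 arrays were added after the data had been seen. Alternatives were the pseudocount, the scaling, the filter, the intensity trend, the thresholds of the rule, a replicate block, fits of 2 groups and leaving out each array.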

Additional observations from a re-analysis of the deposited data

Results flagged for a closer look

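Over all probe sets, 7.63% moved in opposite directions under miR-3TCP with and without miR319b on every array. Of the 60 members, 1 did so, or 1.67%. This probe set, with no listed gene, had signals of 28.9 and 27.1 in octa against 13.6 and 23.5 in miR319b, and 16.9 and 23.6 in miR-3TCP against 38.1 and 25.3 in Col. The effect of miR-3TCP was 0.36 with miR319b and -0.39 without it on the log2 scale, a difference of 0.753. No test of the difference is given, because the rule itself limits how far miR319b and octa can lie from Col and miR-3TCP. Groups of 2 arrays are too small to mark single arrays as apart.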

How the results depend on the processing

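The number of members, 60, depended on the conditions. It was 186 with a pseudocount of 1 (41 of the 60 shared), 21 with a pseudocount of 64 (15 shared), 43 with quantile normalization (43 shared) and 35 with a 2% trimmed mean (34 shared). It was 370 at a threshold of 1.0, 19 at 2.0, 28 with a limit of 0.25 on miR319b and octa and 130 with no limit. Leaving out each array gave 54 to 92 members, 92 without BLS>>TCP4 replicate 1 (53 shared) and 78 without BLS>>TCP4 replicate 2 (44 shared). The median difference of members from Col was 2.09 with a pseudocount of 1 and 1.26 with 64. It was 1.60 with quantile normalization and 1.56 with the trimmed mean. Leaving out each Col or BLS>>TCP4 array in turn gave 1.70 to 1.84. Against miR-3TCP the median difference was 1.78.

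Between miR-3TCP and Col, 0 members were called under every alternative run. The count over all probe sets was 2 with a pseudocount of 1, 4 with no intensity trend, 1 to 2 without each array and 1 otherwise. Between BLS>>TCP4 and Col the count of 3564 (2375 higher) was 1769 with only these groups fitted, and 1672 to 3818 without each array, the lowest being without Col replicate 1, with 2004 without Col replicate 2. It was 2570.0 with quantile normalization (1231 higher, 1339 lower) and 3198 with the trimmed mean (1334 higher, 1864 lower). With the replicate number as a block it was 3604. Replicate differences of same-numbered arrays correlated at -0.40 to 0.45 over 10 pairs of groups, with 3 pairs over 0.1 and miR-3TCP with Col the highest. The labels name no shared batch and most pairs were not over 0.1, so the numbers were not taken to pair the arrays. With the block the count between miR-3TCP and Col was 1, with 0 members. The causes were not tested.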
